A study of Mus musculus with 8 samples.

Results

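Claustrum and Car3-type intratelencephalic (IT) neurons were examined in single-nucleus RNA from the cerebral cortex of 8 mice aged P25 (postnatal day 25). Members were chosen nucleus by nucleus from counts of unique molecular identifiers (UMIs), each of which stands for 1 captured RNA molecule. Kept nuclei had 500 or more detected genes, and mitochondrial UMIs made up no more than 2% of their total. A member had at least 1 UMI of Slc17a7, at most 1 of Gad1 and Gad2 together, at least 1 of Synpr, at least 3 of Nr4a2, Gnb4 and Car3 together, at most 3 of Hs3st4, and at most 2 of the glial and vascular genes Slc1a3, Mog, Inpp5d and Flt1 together. The rule found 114 members among 77185 kept nuclei (0.148%), or 0.271% of the 42073 glutamatergic nuclei, which are the members plus the nuclei that meet only its Slc17a7, Gad and glial limits.

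The mice were 4 wild type (WT) and 4 Chd8+/- (Chd8het) animals on a C57BL/6J background, 2 of each sex per genotype, and each animal gave 1 library. The labels describe litter- and sex-matched pairs, cortex without its medial part, and frozen tissue from all animals processed in parallel with a 10x Genomics 3' kit (v3 chemistry). In all groups replicate 1 was a single-indexed and replicate 2 a dual-indexed library. The labels give the genotype as Chd8+/- with no further description of the allele, and they name no dissection of the claustrum itself. Libraries held 69.5 to 98.1 M UMIs (M marks units of 1e6), and the members contributed 1378246 UMIs, 49337 to 362924 per library.

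The claustrum is a thin sheet of grey matter beneath the insular cortex with reciprocal connections to much of the neocortex. Its projection neurons and the Car3-type IT neurons of deep lateral cortex share a set of transcripts: Nr4a2 encodes an orphan nuclear receptor, Gnb4 a G protein beta subunit, Synpr the synaptic vesicle protein synaptoporin, and Car3 carbonic anhydrase 3. Chd8 encodes a chromatin remodeller in which loss of 1 copy is associated with autism in people. In the annotation used (GENCODE M21, GRCm38), Synpr lies on chromosome 14 from 13284780 to 13616340, Nr4a2 on chromosome 2 from 57106830 to 57124003, Gnb4 on chromosome 3 from 32580332 to 32616585, and Car3 on chromosome 3 from 14863512 to 14872523.

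Gnb4 carried most members past the threshold and Car3 few. Gnb4 was detected in 103 of the 114 nuclei, Nr4a2 in 80, both in 69, and Car3 in 14. All 3 genes were found together in 13 nuclei, at least 2 of them in 70, Gnb4 alone in 34 and Nr4a2 alone in 10. The median sum of the 3 genes was 4 UMIs. A sum of exactly 3 was found in 44 members, just inside the threshold, and 147 nuclei met every other limit with a sum of 2, just outside it. Nr4a2 stood at 59.1 counts per M UMIs (CPM) in the nuclei just inside and 22.6 CPM just outside, and Synpr at 224 and 174 CPM. These genes chose the members, so their levels are description only.

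Some of the rule genes were also detected in nuclei of other kinds. Among 1833 nuclei with at least 3 UMIs of Mog, an oligodendrocyte gene, 49.8% had a Synpr UMI and 31.0% a Gnb4 UMI at a median of 3630 UMIs per nucleus, but 1.47% had Nr4a2 and 0.273% had Car3. Among 1011 nuclei with at least 3 UMIs of the microglial gene Inpp5d, the shares were 6.53% for Synpr, 2.97% for Gnb4 and 0.692% for Nr4a2 at a median of 1679 UMIs. Members had a median of 10354 UMIs, with Nr4a2 in 70.2%, Gnb4 in 90.4% and Car3 in 12.3%. The other 41959 glutamatergic nuclei had a median of 8791 UMIs, with 4.05% for Nr4a2, 12.2% for Gnb4 and 0.114% for Car3.

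The label was compared with 11 claustrum markers that the rule did not use. Summed over these genes, members had 918 CPM and other glutamatergic nuclei 277 CPM. In every library the members' sum was the higher one: it ran from 426 CPM (WT female 1) to 1966 CPM (WT male 1) in WT and from 558 CPM (Chd8het female 1) to 1114 CPM (Chd8het male 1) in Chd8het, against 229 to 378 CPM in other glutamatergic nuclei. Ntng2, a GPI-anchored guidance protein, stood at 265 CPM in members and 39.2 CPM in the others, and Gng2, a G protein gamma subunit, at 228 and 85.0 CPM. Both were higher in 8 of 8 libraries. The kappa opioid receptor gene Oprk1 (33.4 and 3.1 CPM), the transcription factor gene Nr2f2 (32.7 and 2.2 CPM), the glucuronyltransferase gene B3gat2 (122 and 42.9 CPM) and Fosl2 (23.9 and 5.2 CPM) were higher in 7 libraries each. For the serotonin receptor genes Htr2c (107 and 34.6 CPM) and Htr2a (70.4 and 49.3 CPM) and the somatostatin receptor gene Sstr2 (22.5 and 5.9 CPM) the count was 6 libraries. Lxn was at 7.3 and 2.6 CPM. Slc17a6, the second vesicular glutamate transporter, did not follow the label, at 5.8 CPM in members and 6.6 CPM in the others.

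When the members were clustered without the rule genes, they split into groups of 58 (cluster 0) and 56 (cluster 1), each with nuclei from all 8 libraries. Cluster 1 is called claustrum and Car3-like by the markers outside the rule: 55 of its 56 nuclei had UMIs of at least 3 of the 11 (median 5). These markers were not excluded from the clustering, so their division between the clusters may be partly built in. In cluster 0 the median was 2 markers, and 28 of its 58 nuclei had at least 3. The marker sum was 1973 CPM in cluster 1 and 336 CPM in cluster 0, beside 339 CPM in the nuclei just outside the threshold and 277 CPM in all other glutamatergic nuclei. Cluster 0 as a whole thus lay near nuclei outside the rule in its marker sum, although some of its nuclei had several markers, and it is called by its number. As a description of the genes that chose the members, all 14 nuclei with Car3 were in cluster 1, the median sum of Nr4a2, Gnb4 and Car3 was 7 UMIs in cluster 1 and 3 UMIs, the threshold itself, in cluster 0, and 32 nuclei of cluster 0 had Gnb4 alone.

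**Figure D1:**
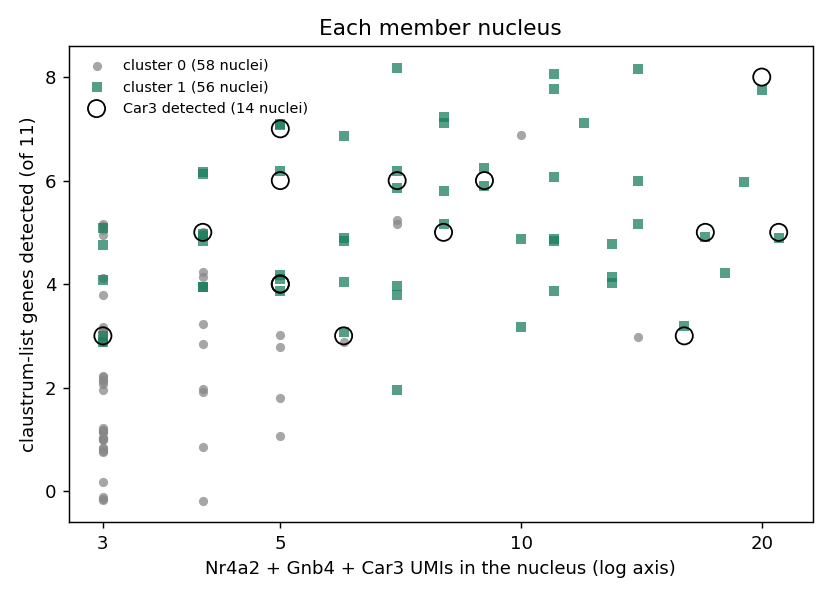
Each point is 1 member nucleus, by its summed Nr4a2, Gnb4 and Car3 UMIs (horizontal, log axis) and the number of the 11 claustrum markers detected (vertical, cluster points moved up or down by up to 0.25 for visibility). Cluster 1 (squares, 56 nuclei) has a median of 5 markers and holds all 14 nuclei with Car3 (rings), and cluster 0 (circles, 58 nuclei) has a median of 2 markers and a median sum of 3.

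Single markers showed the same division. Ntng2 was at 643 CPM in cluster 1 and 56.3 CPM in cluster 0, Oprk1 at 83.8 and 5.6 CPM, Nr2f2 at 85.8 and 3.4 CPM, and B3gat2 at 278 and 36.0 CPM. Fosl2 was the exception, at 22.5 CPM in cluster 1 and 24.8 CPM in cluster 0. Cluster 1 was led by Col11a1 (1013 CPM and 21.4 CPM in cluster 0), a fibrillar collagen gene, with Col24a1, Gm32647 (2184 and 132 CPM), Olfm3 (1761 and 118 CPM), the GDNF receptor gene Gfra1, Nhs and Ntng2. Cluster 0 was led by Tafa1 (2181 CPM and 104 CPM in cluster 1), a secreted chemokine-like protein gene, with the adhesion gene Kirrel3 (899 and 55.2 CPM), Gpc5 (543 and 34.7 CPM), Tshz2 (181 and 8.2 CPM) and Erbb4 (514 and 47.0 CPM). Since the clusters come from the same counts, these differences were not tested.

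Cluster 0 also carried more RNA of oligodendrocyte genes. The 6 listed genes summed to 742 CPM in cluster 0, 229 CPM in cluster 1 and 253 CPM in other glutamatergic nuclei. Nuclei just outside the threshold had 583 CPM, so a high sum was not particular to cluster 0. At least 10 such UMIs were found in 10 nuclei of cluster 0 and 1 of cluster 1. St18, an oligodendrocyte transcription factor gene outside the list, was at 176 and 26.6 CPM. Microglial genes were at 118 CPM in cluster 0 and 129 CPM in cluster 1, and vascular genes at 7.9 and 0 CPM. The interneuron list was at 820 CPM in cluster 0, 398 CPM in cluster 1 and 196 CPM in other glutamatergic nuclei. Adarb2, a gene of this list, alone had 724 and 272 CPM in clusters 0 and 1. At least 10 UMIs of the list were found in 2 nuclei of cluster 0 and 5 of cluster 1. By library the list was at 10244 CPM in the members of Chd8het female 2 and 122 to 426 CPM in those of the other 7. Of the members' 776 Adarb2 UMIs, 580 came from 1 nucleus of Chd8het female 2. That nucleus lay in cluster 0, and the higher list sum of cluster 0 rests on it. Without it, Adarb2 was at 143 CPM in members. Scrublet, which scores nuclei against simulated doublets, marked 7 nuclei of cluster 0 and 1 of cluster 1, or 7.02% of members and 5.91% of kept nuclei. Median UMIs per nucleus were 12848.5 and 8272.5. The part of doublets and of free RNA in cluster 0 was not tested. Of the members' barcodes 3 occurred in another library too, none of them as a member there.

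**Figure D2:**
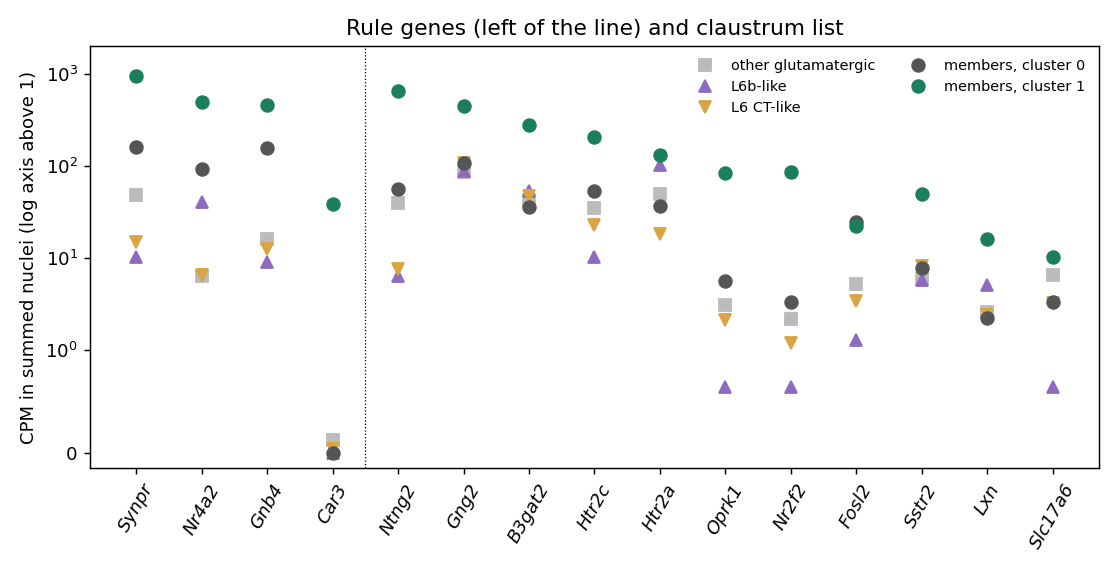
CPM in summed nuclei (vertical, log axis above 1) for the rule genes Synpr, Nr4a2, Gnb4 and Car3 and for the 11 claustrum markers, in the clusters of members, other glutamatergic nuclei, L6b-like and L6 CT-like nuclei. Cluster 1 stands highest for Ntng2 (643 CPM), Gng2 (447 CPM), Oprk1 (83.8 CPM) and Nr2f2 (85.8 CPM), and cluster 0 lies near other glutamatergic nuclei for most markers.

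The 2 deep-layer classes nearest in position served as comparison. L6b-like nuclei (117) had at least 4 UMIs of Hs3st4 and 3 or more of Cplx3, Nxph4 and Ccn2 together, and L6 corticothalamic (CT)-like nuclei (5319) had at least 4 of Hs3st4, at least 3 of Foxp2 and Syt6 together, and at most 1 of those L6b genes. The claustrum marker sum was 274 CPM in the L6b-like and 226 CPM in the L6 CT-like nuclei. Nr4a2 itself was at 40.5 CPM in L6b-like and 6.5 CPM in L6 CT-like nuclei, and Htr2a was at 101.5 CPM in L6b-like nuclei, above the members' 70.4 CPM but below the 131 CPM of cluster 1. Ntng2 (6.4 and 7.6 CPM) and Gnb4 (9.0 and 12.6 CPM) were low in both. The L6b list was at 18.1 CPM in members, 11.9 CPM in other glutamatergic and 456 CPM in L6b-like nuclei, and the L6 CT list at 87.1, 301 and, in L6 CT-like nuclei, 1498 CPM. The rule's limit on Hs3st4, which other glutamatergic nuclei do not share, bears on these levels. A list of layer 5 (L5) IT genes had a higher sum in members, at 1026 CPM against 671 CPM in other glutamatergic nuclei, mostly from 1 gene, Il1rapl2. Of its 5 genes, 0 were higher and 2 lower in members in every library. Its sum was 1332 CPM in cluster 1 and 857 CPM in cluster 0, of which Il1rapl2 had 1303 and 801 CPM. By library the L5 IT sum ran from 309 to 1752 CPM in members and from 585 to 765 CPM in the others. It was lower in members in WT female 1 (584 and 617 CPM), Chd8het female 1 (678 and 680 CPM) and Chd8het female 2 (309 and 662 CPM). In all remaining libraries it was higher in members.

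Beyond the marker lists, 5965 protein-coding genes outside the rule reached 20 CPM in members or other glutamatergic nuclei. Of these, 127 (2.13%) were higher in members in 8 of 8 libraries and 205 (3.44%) lower. These shares are a description of the chosen nuclei and carry no test. On the log2(CPM + 10) scale, averaged over the 8 libraries, Col11a1 was highest above other glutamatergic nuclei, by 3.52 ± 1.09 (SD, n = 8). Libraries are listed from here on as males 1 and 2, then females 1 and 2. Its WT levels were 1804, 306, 206 and 557 CPM, and its Chd8het levels 723, 143, 198 and 223 CPM. Other glutamatergic nuclei had 11.4 to 29.4 CPM, so every library of members lay above them. Col24a1 followed with a difference of 3.22 ± 0.97, and then the relaxin receptor gene Rxfp1 with 3.04 ± 1.24, Zfp804a with 2.71 ± 0.81 and the contactin-associated gene Cntnap3 with 2.67 ± 0.56.

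A further 10 genes completed the leading 15: Tmem163, Gfra1, Ntng2, Rgs12 (a regulator of G protein signalling), Olfm3, Dner, Dnah14, Nhs, Lypd6b and Sh3d19, with mean differences of 1.91 to 2.56. Of these, 3 were higher in L6b-like nuclei than in members: Tmem163 (509.5 and 341 CPM), Nhs (193 and 99.4 CPM) and Lypd6b (75.2 and 69.7 CPM). In members with a sum of Nr4a2, Gnb4 and Car3 of at least 6 UMIs the order turned, with 647, 213 and 134 CPM. That subset was picked by genes of the rule and the L6b-like set was not narrowed alike, so this is description only. Tshz2, a near-projecting neuron marker, differed by -2.98 ± 1.56 (SD, n = 8), the L6 corticothalamic factor gene Foxp2 by -2.74 ± 0.68 and the layer 4 factor gene Rorb by -1.81 ± 1.00. Foxp2 was at 13.8 CPM in members, 118 CPM in other glutamatergic and 710 CPM in L6 CT-like nuclei. Nuclei just outside the threshold, which share the rule's limits on Hs3st4 and Synpr, had 17.2 CPM of Foxp2. Tshz2 was at 101 CPM there and 120 CPM in members, and Rorb at 163 and 105 CPM. Other glutamatergic nuclei do not share the Hs3st4 limit, and its part in the low values was not tested. Col26a1, Kcnk2, Pamr1, Myo16, Kcnip3, Pcp4 and Kcnh5 completed the lowest 10, with differences of -1.84 to -1.41. Of the 165 Tshz2 UMIs in members, 95 came from 1 nucleus.

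**Figure D3:**
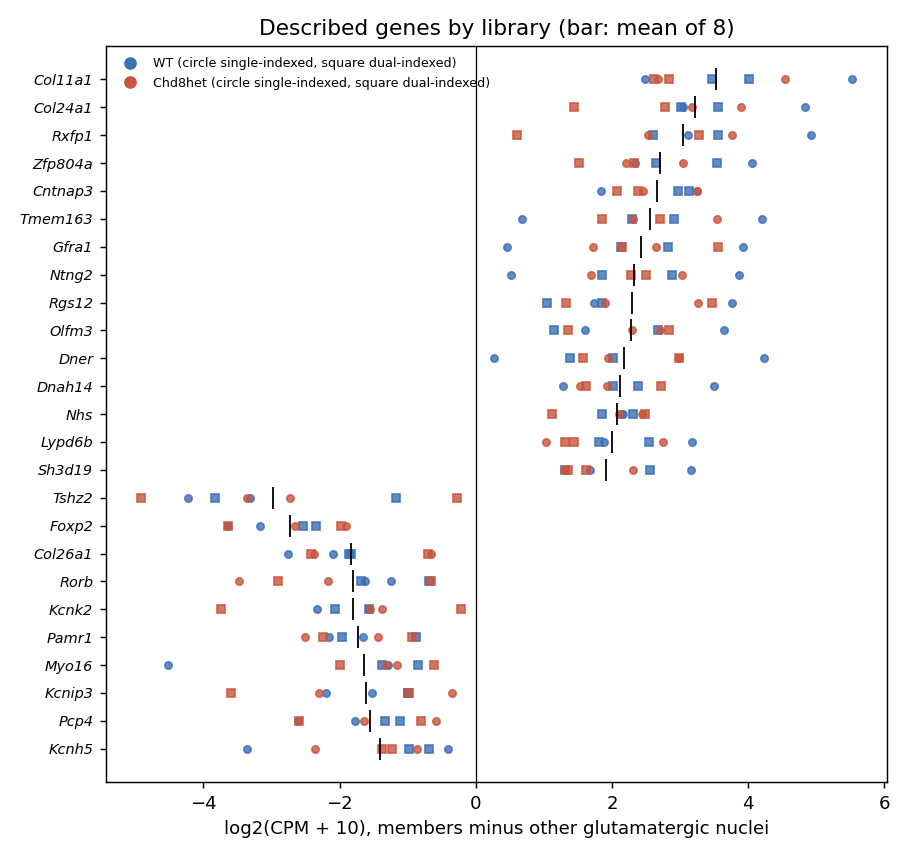
Differences in log2(CPM + 10) between members and other glutamatergic nuclei (horizontal) for the 15 highest and 10 lowest genes, 1 point per library (blue WT, red Chd8het, circles single-indexed, squares dual-indexed) and a bar for the mean of 8. All points of a gene lie on 1 side of 0 by the way the genes were chosen, and Col11a1 has the highest mean (3.52).

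Signalling genes were divided by family, and the counts are of listed genes among the 5965, to be read against the 2.13% higher and 3.44% lower in every library. Of 13 G protein subunit genes, 3 were higher in members in every library, Gng2, Gnai1 (148 CPM in members and 84.9 CPM in others) and Gnao1 (456 and 240 CPM), and 1 was lower, Gnaz (18.9 and 29.9 CPM). Gnb1, the common beta subunit, was at 147 and 126 CPM. Of the Nr4a family, Nr4a3 was at 59.5 and 11.2 CPM but Nr4a1 at 43.5 and 42.2 CPM. Among carbonic anhydrase genes, Car12 (67.5 and 9.4 CPM) was higher in 7 of 8 libraries, at 165 CPM in cluster 1 and 13.5 CPM in cluster 0. Of 20 receptor genes for neuromodulators and peptides, 2 were higher in 8 of 8, Rxfp1 and the muscarinic receptor gene Chrm3 (1803 and 1209 CPM), and 0 were lower. The neurotrophin gene Bdnf was at 98.7 and 25.5 CPM, likewise higher in all 8.

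Of 44 axon guidance and adhesion genes counted in the same way, 8 were higher in every library, among them the netrin receptor gene Unc5c (1285 CPM in members and 493 CPM in others), Cdh9 (332 and 119 CPM) and Cdh13 (536 and 237 CPM), and 3 were lower, among them Cdh18 (512 and 924 CPM). Of 20 glutamate receptor genes, 3 were higher in 8 of 8, among them Gria4 (2134 and 1070 CPM) and Grid1 (609 and 421 CPM), and 5 were lower: Grin1 (415 and 519 CPM), Grin2a (1812 and 2108 CPM), Grik3 (107 and 145 CPM), Grm3 (218 and 465 CPM) and Grm7 (1999 and 2730 CPM). The IT identity genes summed to 1104 and 1214 CPM.

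Members were few in every library, and their share did not differ between genotypes beyond the spread between animals. WT libraries held 6, 14, 11 and 17 members, and Chd8het libraries 19, 27, 15 and 5. As a share of glutamatergic nuclei this was 0.117, 0.326, 0.202 and 0.299% in WT and 0.314, 0.508, 0.255 and 0.117% in Chd8het. The exact binomial 95% intervals, which cover counting error only, ran from 0.0429 to 0.254% in WT male 1 and from 0.335 to 0.739% in Chd8het male 2. The groups overlapped, with the lowest share in a library of either genotype. The mean was 0.236 ± 0.0955% in WT and 0.299 ± 0.162% in Chd8het (SD, n = 4 each), a difference of 0.0626 percentage points with p = 0.571 in a two-sided exact permutation test, whose smallest possible p is 0.029. Within single-indexed libraries the difference was 0.13 and within dual-indexed libraries 8.1e-05 percentage points.

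The direction of that difference rested on Chd8het male 2, without which it was -0.00729 percentage points (p = 0.914, exact permutation test). When each nucleus was thinned to 3000 UMIs before the rule was applied, 19 WT and 16 Chd8het nuclei met it. The mean share was then higher in WT, at 0.168 ± 0.123%, than in Chd8het, at 0.127 ± 0.0644% (SD, n = 4 per genotype, p = 0.6 in the exact permutation test). Kept nuclei with fewer than 3000 UMIs, 8373 in WT and 8313 in Chd8het, were left out. For cluster 1 alone the share was 0.114 ± 0.0382% of WT and 0.146 ± 0.0893% of Chd8het glutamatergic nuclei (p = 0.514, exact permutation test). A smaller share of nuclei and less marker RNA per nucleus cannot be told apart by a rule on counts.

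**Figure D4:**
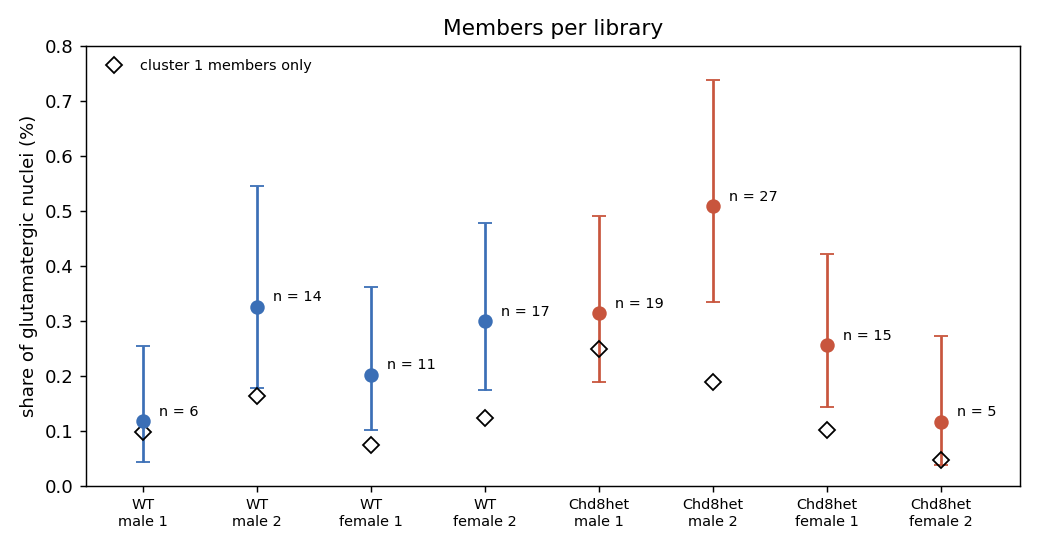
Members as a share of glutamatergic nuclei (vertical, %) in each library, with exact binomial 95% intervals and the number of members beside each point, and the share in cluster 1 as diamonds. Chd8het male 2 is highest at 0.508%, and WT male 1 and Chd8het female 2 are lowest at 0.117%.

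Depth per member did not differ beyond the spread between animals. Median UMIs per member were 8788.5, 12041.5, 11133 and 10998 in WT and 7353, 11304, 10134 and 11581 in Chd8het. The groups overlapped, and the difference of the means (-647 UMIs) gave p = 0.6 in the exact permutation test. The mix of clusters differed more between libraries than between genotypes: cluster 1 held 83.3, 50, 36.4 and 41.2% of WT members and 78.9, 37.0, 40 and 40% of Chd8het members. In WT male 1, cluster 1 supplied 94.3% of the members' UMIs, and in WT female 1 16.9%. Nr4a2 was at 709, 180, 131 and 207 CPM in WT and 274, 259, 188 and 275 CPM in Chd8het, highest in WT male 1.

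Whether members expressed genes differently in Chd8het mice was asked with counts summed per library in all 8 libraries. Genotype was tested for each gene with the edgeR quasi-likelihood test in a model with sex, and Benjamini-Hochberg adjusted p-values (BH) were taken over 2790 genes. No gene passed an adjusted p of 0.05 (0% of genes tested), and 78 had an unadjusted p under 0.05, 46 higher (1.65%) and 32 lower (1.15%) in Chd8het, or 2.8% in all. DESeq2 on the same sums called 1 gene, Maml3. In simulated members with known changes and the same spread for every gene (dispersion 0.0771), the edgeR test found 48 of 50 genes raised 4-fold. It found 20 of 50 raised 2-fold. Of 50 genes lowered to 0.25 and 50 lowered to 0.5, 33 each passed the count filter. The test found 32 of the 33 lowered to 0.25 and 8 of the 33 lowered to 0.5. Lowered genes that failed the filter were not tested and so could not be found. Changes of 2-fold were thus mostly below what these sums can show. Genes with a wider spread, such as those carried by 1 nucleus, were not simulated, so these shares need not hold for them. The values that follow are for the 20 genes of smallest p, given as values that did not pass.

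Chd8 was the first gene examined, because it checks the labels. Its level was 142, 70.1, 110 and 82.9 CPM in WT and 97.7, 102, 93.9 and 68.6 CPM in Chd8het, from 129 UMIs in 76 members. The groups overlapped, with a log2 change (Chd8het minus WT) of -0.02 ± 0.33 (SE). A lower level in Chd8het was not detected in members, and the labels do not say whether the 3' end counted here lies in the altered part of the allele.

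Maml3, a coactivator of Notch signalling on chromosome 3 (51685907 to 52105076), came nearest to the threshold. It stood at 385, 396, 309 and 382 CPM in WT and 124, 187, 93.9 and 120 CPM in Chd8het. Every Chd8het library lay below every WT library, as for 17 of the 2790 genes (0.609%). The log2 change was -1.50 ± 0.26 (SE), with an edgeR adjusted p of 0.168 and a DESeq2 adjusted p of 0.0109. With nuclei thinned to 3000 UMIs it was -2.46, with an edgeR adjusted p of 0.0181 over 670 genes. In members with at least 2 of Nr4a2, Gnb4 and Car3 it was -1.44 and did not pass (edgeR adjusted p = 0.999). Leaving out 1 library in turn gave -1.70 to -1.36. Among cluster 1 members alone Maml3 did not pass the count filter and was not tested. Other glutamatergic nuclei had 148, 437, 182 and 445 CPM in WT and 109, 227, 128 and 280 CPM in Chd8het, and the test of the difference between the changes did not pass (log2 difference -0.66 ± 0.36 SE, edgeR adjusted p = 1).

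Of the other 19 genes, 10 were lower and 9 higher in Chd8het. Ptprt, a receptor tyrosine phosphatase gene, was at 2412, 2059, 2225 and 1902 CPM in WT and 1452, 1196, 1048 and 995 CPM in Chd8het, without overlap. Its log2 change was -0.89 ± 0.21 (SE, edgeR adjusted p = 0.875). The AMPA receptor auxiliary subunit gene Shisa6 was at 284, 641, 103 and 332 CPM in WT and 182, 163, 83.4 and 120 CPM in Chd8het, with WT female 1 inside the Chd8het range (log2 change -1.38 ± 0.37 SE). Among cluster 1 members only, the log2 change was -0.56 for Ptprt and -1.27 for Shisa6, both short of the threshold (edgeR adjusted p = 0.995). Ptprt was at -0.49 in members with at least 2 of Nr4a2, Gnb4 and Car3. Drp2, Rorb, Ube2q2, Gm12002, Clstn2, Kitl, 4930415C11Rik and 9630014M24Rik were the other lower genes, with log2 changes of -2.16 to -0.78. That of Clstn2, -0.78, was -0.48 without WT male 2 and -0.015 in cluster 1.

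On the higher side, the secretogranin gene Scg3 was at 40.5, 25.0, 13.7 and 36.8 CPM in WT and 78.2, 110, 88.7 and 68.6 CPM in Chd8het. The groups did not overlap, as for 27 genes in this direction (0.968%), and the log2 change was 1.65 ± 0.41 (SE). The WT levels of Scg3 rest on few UMIs per library. In cluster 1 alone, and in members with at least 2 of Nr4a2, Gnb4 and Car3, Scg3 did not pass the count filter. Egfem1 was at 81.1, 316, 316 and 534 CPM in WT and 234, 1039, 1210 and 1733 CPM in Chd8het, with Chd8het male 1 inside the WT range. Within each sex and index type the Chd8het library was the higher one (4 of 4). Its log2 change was 1.65 ± 0.42 (SE), and it was at 922 CPM in cluster 0 and 319 CPM in cluster 1, and WT male 1 and Chd8het male 1, the libraries richest in cluster 1, had the lowest level of their genotype. Among cluster 1 members the change was 0.92. The protocadherin gene Pcdh11x was at 40.5, 65.1, 96.2 and 13.8 CPM in WT and 97.7, 234, 266 and 120 CPM in Chd8het, without overlap by a narrow margin. Pcdh11x was likewise a cluster 0 gene (200 CPM, and 24.5 CPM in cluster 1). Ust, Nfib, Ctnnd1, Tulp4, Cep112 and Mctp1 made up the rest, with log2 changes of 0.69 to 1.43. Cep112 had the highest of these, which was 2.37 without WT female 2, and Nfib was at 1.09, or 0.71 in members with at least 2 of Nr4a2, Gnb4 and Car3. The part of the cluster mix in these values was not tested.

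**Figure D5:**
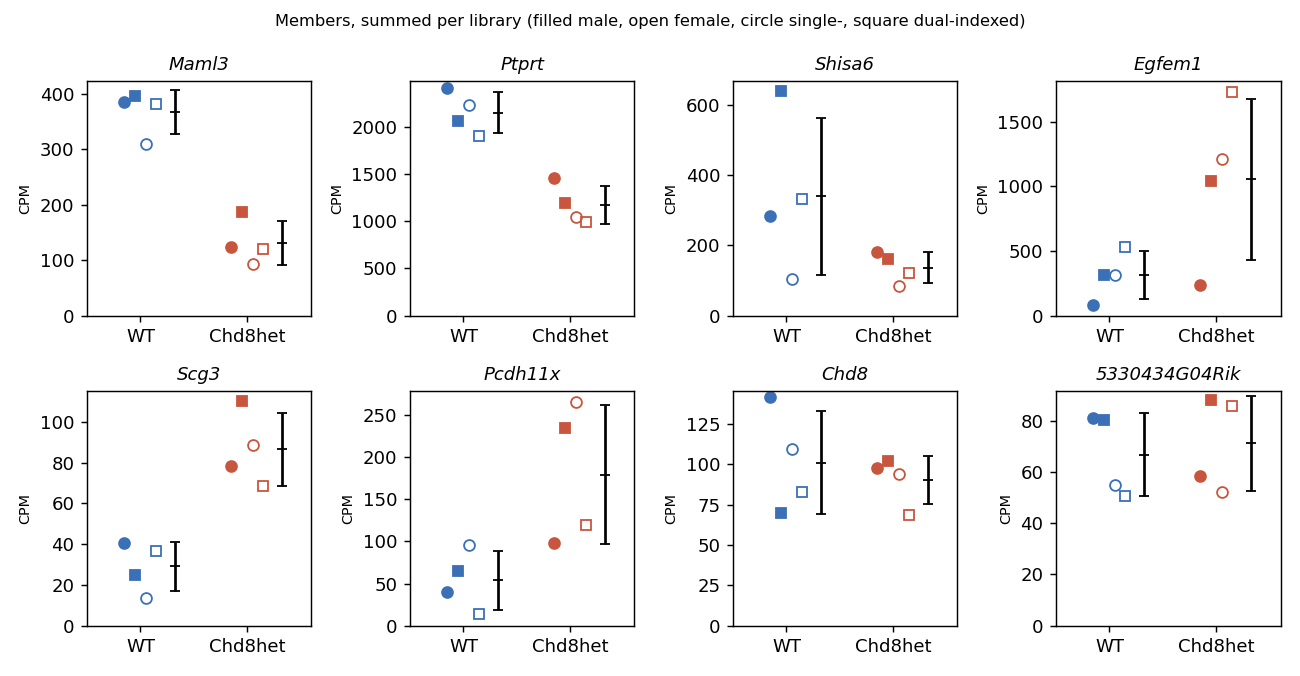
CPM of 8 genes in the summed members of each library (filled male, open female, circles single-indexed, squares dual-indexed), with the mean and SD of 4 libraries at the right of each group. Maml3, Ptprt, Scg3 and, by a narrow margin, Pcdh11x show no overlap between genotypes. Egfem1 and Shisa6 overlap through 1 library each, and Chd8 and 5330434G04Rik overlap.

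A list of 6 genes was followed because they changed in other cell classes of these libraries, so it is not independent evidence. Of the 4 that could be tested in members, 3 were below 0, Maml3 and Shisa6 (described above) and Ephb1, with a median log2 change of -1.04 over the 4. 5330434G04Rik was at 81.1, 80.1, 55.0 and 50.6 CPM in WT and 58.6, 88.2, 52.1 and 85.8 CPM in Chd8het, with a log2 change of 0.06 ± 0.34 (SE). The ephrin receptor gene Ephb1 had a log2 change of -0.70 ± 0.33 (SE, edgeR unadjusted p = 0.0537), which was -0.37 without WT female 2, -0.45 in members with at least 2 of Nr4a2, Gnb4 and Car3, and -1.20 with predicted doublets removed. Glra3 (15 UMIs in 10 members) and Usp11 (49 UMIs) were too low to be tested. Nr4a2 had a log2 change of -0.14 ± 0.41 (SE), which turned to 0.46 without WT male 1. Its UMIs helped to choose the members, so this value is description only and does not measure a genotype effect on Nr4a2.

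By gene group, no list had a called gene, against 0% of all genes. Of the 5 testable claustrum markers, 4 were below 0 and 1 above, with a median log2 change of -0.34, beside -0.01 over all 2790 genes. Htr2c was the 1 above, at 60.8, 30.1, 20.6 and 78.3 CPM in WT and 32.6, 248, 46.9 and 257 CPM in Chd8het (edgeR adjusted p = 0.9995). The sum over all 11 claustrum markers was 1966, 1097, 426 and 783 CPM in WT and 1114, 1053, 558 and 978 CPM in Chd8het. The groups overlapped, and the highest sum, in WT male 1, came from 6 members, 5 of them in cluster 1. The part of the cluster mix in the marker values was not tested. The 4 testable IT identity genes were all below 0 (median -0.44), as were 10 of 14 layer transcription factor genes (-0.11), 11 of 14 sodium and calcium channel genes (-0.13) and 7 of 10 GABA-A receptor genes (-0.10). Glutamate receptor genes had 8 above and 11 below 0 (median -0.04), autism-associated regulators 11 and 19 (-0.03), and axon guidance and adhesion genes 18 and 18 (0.007). Over all genes, 1357 were above and 1433 below 0. All 3 testable oligodendrocyte genes were above 0 (median 0.94). Their list summed to 1257, 120, 137 and 456 CPM in WT and 339, 829, 860 and 824 CPM in Chd8het, and its part in the genotype values was not tested.

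Sex gave 3 called genes of 2790 (0.108%): Xist and Tsix, the transcripts of X inactivation, and the Y-linked Uty. Xist was at 875 to 1142 CPM in the 4 female libraries and at 0 to 5.0 CPM in the 4 male libraries, and Uty at 117 to 132 CPM in males and 0 in females, as the labels give the sexes. Xist and Tsix overlap on opposite strands, and their reads can be told apart only if strand was used in counting. The sex by genotype interaction called no gene (0%, with 33 genes or 1.18% under 0.05 before adjustment in edgeR), and Slx4ip, Snx13 and Uhrf2 came nearest. The test of a difference in genotype effect between members and other glutamatergic nuclei called no gene (0%, with 69 genes or 2.47% under 0.05 before adjustment in edgeR), and the smallest p was that of Drp2, Scg3 and Rab40c. In Drp2 the effect in members was lower by 1.71 ± 0.41 (SE) on the log2 scale, and in Scg3 it was higher by 1.28 ± 0.37, both with an adjusted p of 1.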

How the data were processed

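The deposited matrices hold the authors' whole-number UMI counts per gene (32285) and barcode (97772 in 8 libraries), without normalization. The submitters' processing notes name mm10, STAR 2.7.9a, STARsolo and Cell Ranger. For the counting of intron reads and strand, the setting is not given in the sources used here. Members and gene lists were chosen with earlier results of these data known.

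Counts of members were summed per library. CPM are counts per M UMIs of the summed nuclei. Genotype, sex, their interaction and the difference in genotype effect between members and other glutamatergic nuclei (with a term per library) were tested with the edgeR 4.0.16 quasi-likelihood F test (two-sided, TMM scaling, minimum count 10, BH over all genes tested, threshold 0.05), with sex as covariate. SE come from the F statistic. DESeq2 1.42.0 was an alternative. A minimum of 20 members per library was planned, but 1 library reached it, so all 8 were used, a choice made after the counts were seen. Shares and median UMIs were compared by exact permutation over libraries.

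Members were clustered with Leiden (scanpy 1.11.5) on 1500 variable genes without rule, mitochondrial and sex-linked genes, with 20 components, 10 neighbours and resolution 0.5. Doublets were marked by Scrublet (expected 0.8% per 1000 nuclei) and kept, and leaving them out was an alternative. Genes named are the 20 of smallest genotype p, the 15 highest and 10 lowest against other glutamatergic nuclei, the rule and claustrum genes, and 2 to 4 from other lists. Leading cluster genes, Car12, Nr4a1, Gnb1 and St18 were named after their values were seen. Smim32 of the claustrum list is not among the gene names used. The edgeR fit was tested on simulated counts of 2777 genes.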

Additional observations from a re-analysis of the deposited data

Results flagged for a closer look

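In 76 groups of 4 libraries, 7 had 1 library far from the other 3 (its gap to the nearest, as a share of the range, was above Dixon's critical value); chance gives about 1 in 20 such groups. WT male 1, with 6 members of which 5 were in cluster 1, stood above the other WT libraries for Nr4a2 (709 CPM, others 131 to 207 CPM), Nr2f2 (142 CPM, others 9.2 to 30.1 CPM) and Ctnnd1 (101 CPM, others 59.9 to 61.8 CPM). Fosl2 was low in WT female 2 (9.2 CPM, others up to 20.6 CPM) and Maml3 low in WT female 1 (309 CPM, others 382 to 396 CPM). The Fosl2 and Nr2f2 values in WT and the Ctnnd1 level of WT male 1 rest on few UMIs each. These flags therefore lie near the floor of counting. Nr4a2 is a gene of the rule, so its flag is description only. Kitl was high in WT male 2 (160 CPM, others 89.3 to 101 CPM), and Tulp4 high in Chd8het male 2 (201 CPM, others 130 to 137 CPM).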

How the results depend on the processing

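No fit that left out 1 library in turn called a genotype gene (0 to 0 genes), and the sex term kept 3 genes. With no filter on low counts the calls were 7 for genotype, 12 for sex, 4 for sex by genotype and 6 for the difference between classes. The 7 were Adarb2, 4930415C11Rik, Egfem1, Galntl6, Vwc2l, 9330185C12Rik and Pcdh11x, and 580 of the 776 Adarb2 UMIs came from 1 nucleus of Chd8het female 2. Thinning to 3000 UMIs (670 genes tested) and DESeq2 each called 1 gene, Maml3. An index term gave 5 sex genes. Labels do not say which libraries are littermates: deviations of libraries with the same sex and number correlated at 0.285, 0.286, 0.258 and 0.0897, and 1 of 4 lay under the limit of 0.1, so numbers were not taken as pairs. WT female 2 correlated best with Chd8het male 2 (0.12), the other 3 WT libraries with their own number. With a replicate block, edgeR and DESeq2 each called 1 gene, Egfem1 (adjusted p = 0.00185 and 7.1e-06), and DESeq2 no longer called Maml3 (adjusted p = 0.0867), and exact sign-flip p was 0.375 for the share and 0.25 for median UMIs (smallest possible 0.13).

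Leaving out 1 library moved the share difference between -0.00729 (without Chd8het male 2) and 0.123 percentage points (without Chd8het female 2), and the difference in median UMIs between -1298 (without WT male 1) and 266 UMIs (without Chd8het male 1). The share difference was -0.041 after thinning. Nr4a2 is a gene of the rule, so its changes under other settings are description only. The log2 change of Nr4a2 became 0.46 without WT male 1, 0.37 with at least 2 of the trio, 0.35 in libraries with at least 10 members, 0.22 in cluster 1 and 0.011 in DESeq2 with the block, and was lowest, -0.44, without WT male 2. Chd8 became 0.13 without WT male 1, 0.097 without WT female 1, 0.063 without Chd8het female 2 and 0.24 in libraries with at least 10 members, and was lowest, -0.31, without WT male 2. 5330434G04Rik became -0.032 without Chd8het male 2, -0.051 without Chd8het female 2 and -0.047 in libraries with at least 10 members, and was highest, 0.17, without Chd8het male 1. The causes were not tested. Of 471 values of named genes under other settings, 459 kept their direction. All reversals were in 5330434G04Rik, Chd8 and Nr4a2, which were not picked by p. Most of the other genes were picked by smallest p in these same data. Their direction under settings that share most nuclei was thus largely fixed, and the count is no independent evidence. WT male 1 and Chd8het female 2 held 6 and 5 members, so their CPM rest on 49337 and 58278 UMIs.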

Other observations

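Immediate early genes, which neurons induce with activity, summed to 834 CPM in members and 508 CPM in other glutamatergic nuclei. Listed as males 1 and 2, then females 1 and 2, the members' sums were 547, 867, 357 and 414 CPM for WT and 417, 1524, 887 and 343 CPM for Chd8het. Other glutamatergic nuclei of the same libraries had 472, 728, 249 and 473 CPM in WT and 432, 905, 539 and 275 CPM in Chd8het, so the highest value fell in Chd8het male 2 in both sets. Genes of striatal projection neurons, the neighbours of the claustrum below the cortex, summed to 1427 CPM in members and 1235 CPM in other glutamatergic nuclei. They were at 619 to 1277 CPM in members of the single-indexed libraries and 909 to 2182 CPM in those of the dual-indexed libraries, so the index types overlapped. In other glutamatergic nuclei they did not, at 560 to 864 CPM and 1188 to 2068 CPM. Members were above the other glutamatergic nuclei in 4 of 8 libraries.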
